A study of Mus musculus with 4 samples.

Results

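Smooth muscle cells of the vessel wall were described in mouse digits from 4 single-cell RNA libraries, as the barcodes that carried transcripts of the contractile apparatus. Barcodes were kept with 200 to 5500 detected genes, at most 30000 UMIs (unique molecular identifiers, each marking 1 captured transcript) and at most 10% mitochondrial UMIs. A kept barcode was counted as smooth muscle when it held at least 2 UMIs of Myh11, UMIs of 3 or more of the 5 genes Acta2, Tagln, Cnn1, Des and Lmod1, no UMI of Pecam1, and under 0.5% of its UMIs from Krt5 plus Krt14. Of 93602 kept barcodes, 1786 met the rule. Because these genes chose the barcodes, their levels are given only as a description. Every other gene was read from the same barcodes.

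The study asked how lymphatic vessels bear on regrowth of the amputated terminal phalanx (P3). Each library pooled hindlimb digits 2 to 4 from 10 female C57BL/6 mice aged 6 to 8 weeks, so 1 library stood for each condition, each with a batch label of its own, and batch and condition cannot be told apart. In LNR, lymph nodes had been removed on one limb, and the sham library served as its control. According to the paper the opposite limb was the sham, so LNR and sham may come from the same mice. In SAR131675, mice ate chow with 30 mg/kg of SAR131675, an inhibitor of the lymphatic growth factor receptor VEGFR3 (gene Flt4), for the 8 days given in the labels, against a control diet over the same days. The sham and control diet libraries are both labelled as untreated, and no label names a transgene or mutant allele. The digits were taken after amputation of the P3 tip, on a day the sample labels do not state, and not every pooled digit need have been amputated. Because mice were pooled and each condition had 1 library, no difference between conditions could be tested, and the intervals given for them cover counting error only.

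Smooth muscle cells form the middle coat of arteries, arterioles and veins, where rings of actin and smooth muscle myosin set the width of the vessel. Calcium entering through voltage-gated channels binds calmodulin, calmodulin activates myosin light chain kinase, and myosin phosphatase reverses that step. Transcription of these genes is driven by serum response factor with its partner myocardin, which bind a short motif called the CArG box. Pericytes are the neighbouring mural cells of capillaries and small venules, with little contractile machinery. Where 4 values follow each other they are in the order LNR, sham, SAR131675 and control diet, and CPM means UMIs of a gene after scaling the summed UMIs of the barcodes named to 1000000.

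The promoters of Acta2 and of 4 further contractile genes whose window held a CArG box, picked after their values were seen, are shown because the CArG box is the element through which this gene group is known to be switched on. Each line gives 250 bases before the RefSeq transcription start, 5′ to 3′ on the gene's strand in build GRCm38.p6, and capitals mark boxes found by a search for CC, then 6 letters of which at most 1 was not A or T, then GG. The motif reads as the same class of word on both strands, so 1 search covered both. Acta2 encodes smooth muscle alpha actin, Myl9 the regulatory myosin light chain, Myl6 the essential light chain, Filip1l a filamin-interacting protein and Vcl vinculin, which ties actin to the membrane.
Acta2 promoter, chr19:34255374-34255623, minus strand: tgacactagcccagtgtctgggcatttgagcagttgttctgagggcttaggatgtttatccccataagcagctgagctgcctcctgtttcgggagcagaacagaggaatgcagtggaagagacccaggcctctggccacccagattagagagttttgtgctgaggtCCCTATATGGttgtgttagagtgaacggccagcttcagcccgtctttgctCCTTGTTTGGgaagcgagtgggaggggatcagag
Myl9 promoter, chr2:156775214-156775463, plus strand: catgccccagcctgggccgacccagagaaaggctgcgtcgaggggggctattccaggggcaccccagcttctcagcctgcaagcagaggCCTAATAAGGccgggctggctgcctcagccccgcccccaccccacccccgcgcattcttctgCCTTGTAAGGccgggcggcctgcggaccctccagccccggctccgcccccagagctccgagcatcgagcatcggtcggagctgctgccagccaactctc
Myl6 promoter, chr10:128493010-128493259, minus strand: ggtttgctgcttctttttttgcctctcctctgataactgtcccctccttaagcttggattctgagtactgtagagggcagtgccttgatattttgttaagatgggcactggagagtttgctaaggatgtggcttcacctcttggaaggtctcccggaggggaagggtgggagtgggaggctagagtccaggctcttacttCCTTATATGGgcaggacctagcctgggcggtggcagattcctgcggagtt
Filip1l promoter, chr16:57548992-57549241, plus strand: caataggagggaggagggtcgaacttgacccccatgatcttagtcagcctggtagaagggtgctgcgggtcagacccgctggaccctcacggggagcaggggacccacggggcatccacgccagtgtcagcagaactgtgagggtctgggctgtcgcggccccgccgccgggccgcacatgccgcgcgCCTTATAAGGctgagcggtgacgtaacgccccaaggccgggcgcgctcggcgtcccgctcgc
Vcl promoter, chr14:20929148-20929397, plus strand: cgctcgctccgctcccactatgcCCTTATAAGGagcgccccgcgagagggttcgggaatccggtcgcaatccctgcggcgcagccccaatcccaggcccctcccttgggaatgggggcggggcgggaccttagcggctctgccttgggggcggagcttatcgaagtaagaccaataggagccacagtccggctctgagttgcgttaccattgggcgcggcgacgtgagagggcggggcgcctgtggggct

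The Acta2 window held 2 boxes, at -84 to -75 and -34 to -25 from the start, and the Myl9 window held 2, at -161 to -152 and -99 to -90. Myl6 held 1 at -50 to -41, Filip1l 1 at -62 to -53 and Vcl 1 at -227 to -218. Over windows of 250 bases before to 50 after the start, 14 of the 47 promoters of contractile genes held such a box (29.8%), against 3280 of all 32851 promoters (9.98%). With no deviation allowed the counts were 7 of 47 (14.9%) and 535 of 32851 (1.63%). Both counts for contractile genes include overlapping windows of Ldb3 that held the same box, so that box was counted more than once. The contractile genes here were the contractile list with the rule genes, and promoters were matched for 38 of 44. Myh11 and Tagln were among those without a promoter entry, and the windows of Cnn1, Des and Lmod1 held no box. Susd5 and Pcp4l1, which the list also held, were among the genes with a box. The list was chosen with earlier results of these data known, so the counts describe that list and not the contractile apparatus alone. A match is a stretch of letters and says nothing about binding in these cells.

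The rule genes themselves were high in every library. Acta2 stood at 10753, 9614, 9601 and 11184 CPM and was present in 99.7 to 100% of the barcodes, and Tagln, which encodes transgelin, stood at 8386, 7077, 6146 and 6105 CPM. Myh11, smooth muscle myosin heavy chain, stood at 2653, 2403, 3967 and 5000.0 CPM with medians of 9, 8, 25 and 28 UMIs per barcode. Lmod1, the leiomodin that seeds actin filaments, stood at 547, 474, 506 and 508 CPM. Des, the intermediate filament desmin, had 155, 154, 153 and 157 CPM and was found in 38.7, 41.6, 51.9 and 51.1% of barcodes. Cnn1, calponin, had 346, 299.5, 443 and 575 CPM and was found in 35.7, 31.8, 31.6 and 36.6%. Most barcodes thus passed on 3 or 4 of the 5 genes, and all 5 were present in 29, 24, 57 and 33 barcodes.

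At the edges of the rule the step between barcodes outside and inside differed from library to library. In LNR, the 42 barcodes with a single Myh11 UMI that met the other conditions held 546 CPM of Notch3 and 525 CPM of Mylk, against 691 and 904 CPM in the 37 barcodes with 2 Myh11 UMIs. The 25 barcodes of LNR with 0.5 to 1% of UMIs from Krt5 plus Krt14, outside the rule, held 176 CPM of Notch3 and 797 CPM of Mylk, and the 18 barcodes between 0.25 and 0.5%, inside it, held 233 and 1129 CPM. In sham the order at the Myh11 cut was the other way for Notch3, at 583 CPM in 24 barcodes outside and 423 CPM in 39 inside. In control diet the Myh11 cut was a sharp step, with Notch3 at 335 CPM and Dcn at 3039 CPM in 20 barcodes outside and 989 and 38.1 CPM in 12 inside, and at the keratin limit Notch3 was at 231 CPM in 4 barcodes outside and 88.6 CPM in 25 inside. In SAR131675 Notch3 was at 677 and 764 CPM at the first edge and 253 and 183 CPM at the second.

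Pln and Notch3 were found in few keratinocyte or fibroblast barcodes after thinning each barcode to 1500 UMIs. Myh11 chose the smooth muscle barcodes, and the fibroblasts were chosen to hold none of it, so its absence from fibroblasts was fixed by the rules. Without thinning, keratinocyte barcodes, chosen by at least 2% of UMIs from Krt5 plus Krt14, held a Myh11 UMI in 0.671, 0.735, 1.22 and 0.357% of barcodes. Their median depths were 7422, 7108.5, 13081 and 12498.5 UMIs. The smooth muscle barcodes had median depths of 3253, 3176, 7951 and 8170.5 UMIs. Pln, the calcium pump inhibitor phospholamban, was found in 33.4, 31.5, 25.4 and 19.5% of the smooth muscle barcodes after thinning each barcode to 1500 UMIs, against 0 to 0.0364% of fibroblasts. Notch3 was found in 62.7, 58.8, 67.5 and 67.0% of those thinned barcodes, against 0.618, 0.6, 0.33 and 0.57% of fibroblasts and 1.57, 1.11, 1.41 and 2.08% of keratinocyte barcodes, or 4.70, 4.41, 11.9 and 10.95% of the latter unthinned. Its level in the other mural class is given with the Notch genes. Other genes were less specific, with Tpm2 in 65.3 to 76.3% of keratinocyte barcodes (17.0 to 26.2% after thinning) and Mustn1 in 12.3 to 15.0% of thinned fibroblasts.

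The vascular label was then checked against genes of vessel wall smooth muscle that the rule did not use. All 15 of them were present in every library, and their summed level was 22234, 18552, 9229 and 8965 CPM. Presence alone does not tell cell types apart, since all 6 fibroblast markers were also present in every library. The 16 genes of the pericyte list, again all present, summed to 5437, 5163, 9142 and 8768 CPM. In the diet pair that was close to the sum of the vascular genes. A list of 16 genes of smooth muscle in other organs summed to 675, 611, 868 and 910.4 CPM, with 0 to 2 of them at 0. Its shares of thinned barcodes varied by gene. Itga8 was found in 16.2, 13.8, 20.7 and 23.0%, Actg2 in 15.5, 14.3, 7.28 and 9.46%, Npnt in 3.06, 2.05, 2.43 and 3.24% and Hhip in 0.218, 0.512, 0 and 0.541%. The skeletal muscle markers summed to 4.2, 7.32, 3.21 and 4.65 CPM, with 2 to 4 of the 6 at 0. Lymphatic endothelial markers summed to 24.3, 63.2, 21.8 and 18.0 CPM over 6 genes and blood endothelial markers to 76.0, 105, 236 and 257 CPM over 7 genes without Pecam1. Markers of other cells were present: fibroblast markers summed to 3704, 3503, 2575 and 2419 CPM, keratinocyte markers other than Krt5 and Krt14 to 2939.9, 4543, 1701 and 1813 CPM, leukocyte markers to 493, 153, 151 and 554 CPM and erythroid markers to 796, 494, 1611 and 905 CPM. Myoepithelial markers summed to 366, 123, 176 and 158 CPM, osteoblast and tendon markers to 301, 139.6, 110.3 and 113 CPM and Schwann cell markers to 43.4, 29.3, 93.4 and 30.7 CPM. No doublet caller was run, and barcodes with RNA of a second cell type were kept unless the rule removed them.

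For one group of barcodes the data went against the vascular label, and clusters near pericytes in some genes are described further below. Among the smooth muscle barcodes of the diet pair, a cluster of 68 held 1593 CPM of Krt14, 983 CPM of Krt5 and 239.6 CPM of Trp63, genes of basal epithelium, together with 2946 CPM of Cnn1 and 16799.9 CPM of Acta2, and with 4584 CPM of the fibroblast gene Dcn. It held only 86.4 CPM of Notch3, 48.8 CPM of Pln and 11.1 CPM of Myocd, against 789.6 to 1227 CPM of Notch3 and 232 to 314 CPM of Myocd in the clusters richest in Pln. A cluster of 15 in the LNR pair was alike, with 3568 CPM of Cnn1, 2075 CPM of Krt14, 23.3 CPM of Notch3 and no UMI of Rgs5, Pln or Myocd. These 68 and 15 barcodes met the rule because their keratin share was within its limit. Class and pair comparisons were also run without these and the other clusters set apart by keratinocyte, fibroblast or leukocyte markers (without mixed clusters, an alternative chosen after the data were seen).

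The libraries differed in depth by pair. The 4 libraries held 21669 to 38464 barcodes and 168507188 to 585284877 UMIs, and the smooth muscle barcodes summed to 1913076 to 4669497 UMIs per library. The file headers name Cell Ranger 6.1.2 for LNR and sham and 8.0.1 for SAR131675 and control diet, and the level of some genes differed far more between pairs than within them. Prkg1, cyclic GMP-dependent protein kinase, stood at 86.3, 101, 1806 and 1664 CPM, and Cacna1c, the pore of the L-type calcium channel, at 45.7, 39.7, 925 and 967 CPM. The cause was not tested, and conditions were compared only within a pair. LNR and sham shared 130 barcode sequences, 1 of them smooth muscle in both, and SAR131675 and control diet shared 348, again with 1 smooth muscle barcode in both.

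Smooth muscle barcodes made up a small and similar share of each library. They were 470 of 19827 kept barcodes in LNR, or 2.37% (95% Clopper-Pearson interval 2.16 to 2.59), and 399 of 20669 in sham, or 1.93% (1.75 to 2.13). In SAR131675 they were 545 of 29076, or 1.87% (1.72 to 2.04), and in control diet 372 of 24030, or 1.55% (1.40 to 1.71). The share was higher in the treated library of both pairs, by 1.23-fold (1.07 to 1.41) in LNR over sham and 1.21-fold (1.06 to 1.39) in SAR131675 over control diet. These are single libraries, and a difference of this size between pools was not tested.

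The direction of the SAR131675 ratio depended on barcodes with UMIs of other cell types' markers. Without every barcode that held a UMI of Ptprc, Pdgfra, Krt5 or Krt14, 186 and 191 barcodes were left in SAR131675 and control diet, and the log2 ratio turned from 0.28 (0.083 to 0.47) to -0.31 (-0.61 to -0.014). With only the keratin limit tightened, to under 0.1% of UMIs from Krt5 plus Krt14, the ratio was 0.31 (0.11 to 0.52). A Krt5 or Krt14 UMI was present in 64.8% of the smooth muscle barcodes of SAR131675 and 46.5% of control diet, against 34.5% in LNR and 33.1% in sham. Fibroblasts of the same libraries held a Krt14 UMI in 53.5% of barcodes in SAR131675, 36.2% in control diet, 27.6% in LNR and 29.1% in sham. The median UMIs of those fibroblasts were 11264.5, 10309, 4982.5 and 4892 in the same order. The part of free RNA in the keratin UMIs of the smooth muscle barcodes was not tested. Leaving out mixed clusters gave log2 ratios of 0.35 (0.13 to 0.56) for SAR131675 and 0.35 (0.13 to 0.57) for LNR.

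**Figure D1:**
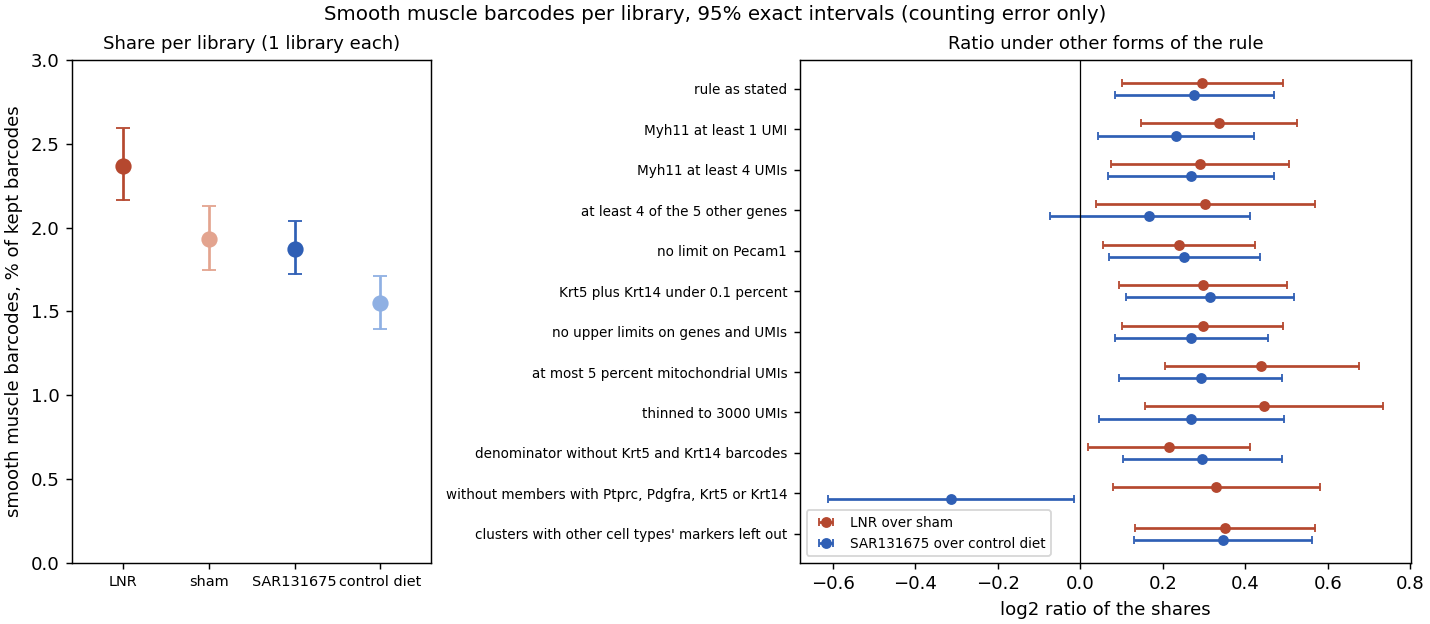
Left, smooth muscle barcodes as a percentage of kept barcodes in each library, 1 point per library with its 95% exact interval. Right, log2 ratio of the shares within each pair under the rule as stated and under other forms of it. All ratios lie above 0 except SAR131675 over control diet without barcodes that held Ptprc, Pdgfra, Krt5 or Krt14, at -0.31.

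To find what set these barcodes apart in genes the rule did not use, their summed UMIs were compared with those of 2 other classes in the same 4 libraries. Fibroblasts were 10532 barcodes with Pdgfra, Dcn and Lum and no Myh11. Rgs5+ Myh11- barcodes were 244 barcodes with at least 2 UMIs of the mural gene Rgs5 and UMIs of at least 2 of Pdgfrb, Kcnj8, Abcc9 and Cspg4. This second class proved mixed, since the cartilage surface gene Prg4 made up a mean of 78272 CPM in it. A purer class was therefore added after its values were seen, with no Pdgfra UMI and at most 1 Myh11 UMI (253 barcodes, called Rgs5+ Pdgfra- here). Of 15634 genes, 3380 were higher (21.6%) and 3802 lower (24.3%) than in fibroblasts by edgeR's quasi-likelihood test with the library as a block at an adjusted p of 0.05. Against Rgs5+ Myh11- barcodes, 1012 of 10923 genes were higher (9.26%) and 871 lower (7.97%), and against Rgs5+ Pdgfra- barcodes 676 of 10723 were higher (6.3%) and 337 lower (3.14%). Differences are log2 values of smooth muscle over the other class, with n = 4 libraries per class, each library under a different condition. The added class and the planned one gave partly different calls. Of 10388 genes tested against both, 1730 were called against Rgs5+ Myh11- and 1010 against Rgs5+ Pdgfra- barcodes, with 545 called in both with the same sign and 30 with opposite signs. A result given against Rgs5+ Pdgfra- barcodes alone therefore holds for that class only, which was not the planned one. It need not hold, in call or direction, against Rgs5+ Myh11- barcodes. Each gene named as above or below another class was so in 4 of 4 libraries and past that threshold, unless stated. Counts given below for a gene list are to be read beside the shares of all genes given here. Those shares were 21.6% higher and 24.3% lower than fibroblasts, and 6.3% and 3.14% against Rgs5+ Pdgfra- barcodes.

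Genes of the contractile list beyond the rule genes were higher in smooth muscle almost throughout. The list was broader than the contractile apparatus itself, since it also held Pcp4l1 and the membrane protein Susd5. The list was also chosen with earlier results of these data known. Of its 35 tested genes, 34 were higher than in fibroblasts and none was lower, with a median difference of 3.47 against -0.041 over all genes. Against both Rgs5+ classes 32 of 35 were higher and none lower, with medians of 2.82 and 1.99 against 0.031 and 0.0053. The classes were split on Myh11 in the same barcodes, and these genes are known to be expressed together with it, so the counts describe the classes and are not independent of the rule.

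Without mixed clusters, which were left out of the smooth muscle sums only, 3643 of 15397 genes were higher (23.7%) and 4359 lower (28.3%) than in fibroblasts, and 1018 of 9205 were higher (11.1%) and 954 lower (10.4%) than in Rgs5+ Pdgfra- barcodes. Because those clusters were chosen by keratinocyte, fibroblast and leukocyte markers, such markers had to fall. The contractile list then had 35 of 35 genes above fibroblasts and 33 of 35 above Rgs5+ Pdgfra- barcodes. Of the list and named genes tested in both settings against fibroblasts, 319 kept their call and direction, 17 lost it, 42 gained one and 6 reversed. Against Rgs5+ Pdgfra- barcodes 162 kept it, 8 lost it, 55 gained one and 1, Dcn, reversed. Where a gene named here lost, gained or reversed its call, the value is given beside it.

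Genes of myosin and of its switch were above both other classes. Myl9 stood at 3909, 3253, 2521 and 2821 CPM in smooth muscle, at 679.7, 698, 274 and 331 CPM in Rgs5+ Pdgfra- barcodes and at 16.1, 17.3, 15.6 and 9.59 CPM in fibroblasts. The 3 classes did not overlap in any library. It was higher by 7.75 ± 0.17 (SE, adjusted p = 7.7e-08) than in fibroblasts and by 2.84 ± 0.16 (SE, adjusted p = 4.6e-08) than in Rgs5+ Pdgfra- barcodes. Myl6, the partner light chain found in many cells, stood at 5239.8, 4639, 3708 and 3333 CPM against 873, 849, 821 and 682 CPM in fibroblasts, a difference of 2.37 ± 0.093 (SE). Mylk, the myosin light chain kinase, stood at 1377, 1237, 1906 and 2087 CPM, higher than in fibroblasts by 5.89 ± 0.25 (SE) and than in Rgs5+ Pdgfra- barcodes by 2.17 ± 0.14 (SE). On the phosphatase side, the target subunit Ppp1r12b was higher by 2.62 ± 0.26 (SE) and 2.14 ± 0.19 (SE), and the inhibitor Ppp1r14a by 5.11 ± 0.18 (SE) and 2.80 ± 0.25 (SE). Kinase, phosphatase subunit and inhibitor were thus all above the other classes.

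Thin filament and dense body genes followed. Tropomyosins Tpm1 and Tpm2 stood at 3205, 2979, 4566 and 4107 and at 3932, 3438, 1695 and 1807 CPM, higher than in Rgs5+ Pdgfra- barcodes by 2.18 ± 0.15 (SE) and 3.48 ± 0.18 (SE). Tpm4, a tropomyosin of non-muscle cells, stood at 369, 406, 443 and 431 CPM against 510.5, 552, 297 and 395 CPM in Rgs5+ Pdgfra- barcodes and did not pass the test (0.036 ± 0.17 SE, adjusted p = 0.95). Actg2, the gamma actin of visceral muscle that some vessels also use, stood at 192, 150.0, 103 and 104 CPM and was higher than in fibroblasts by 6.85 ± 0.35 (SE). Among anchoring proteins, Sorbs2 stood at 515, 439.6, 767 and 950.0 CPM against 35.5, 52.9, 81.6 and 58.7 CPM in Rgs5+ Pdgfra- barcodes, a difference of 3.65 ± 0.19 (SE). Pdlim3, a Z-disc and dense body protein, was higher by 3.55 ± 0.29 (SE). Vcl was the contractile gene with a smaller step, at 238, 268, 559 and 579 CPM against 240.2, 205, 385 and 373 CPM, a difference of 0.51 ± 0.15 (SE, adjusted p = 0.04) with a higher level in 3 of 4 libraries. Vim, the intermediate filament shared with fibroblasts, stood at 4127, 3709.7, 3798 and 4544 CPM in smooth muscle and 3717, 3507, 3889 and 4484 CPM in fibroblasts and did not pass that test (0.053 ± 0.071 SE, adjusted p = 0.58), but did without mixed clusters (0.40 ± 0.066 SE, adjusted p = 5.0e-04).

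Pln and Susd5 had few or no UMIs in the other classes. Pln stood at 336, 269, 288 and 223 CPM, against 0, 19.8, 0 and 0 CPM in Rgs5+ Pdgfra- barcodes and 0.0381 to 0.125 CPM in fibroblasts. Susd5, a membrane protein, stood at 52.7, 63.2, 75.2 and 85.2 CPM and had no UMI in the Rgs5+ Pdgfra- barcodes of any library. Where a class has libraries with no UMI of a gene, a fitted difference depends on the prior count and is no bound. In the Rgs5+ Pdgfra- sums 1 UMI stood for 2.73, 3.31, 5.83 and 5.33 CPM. For a gene near that level in smooth muscle, a lack of UMIs there cannot be read as absence.

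**Figure D2:**
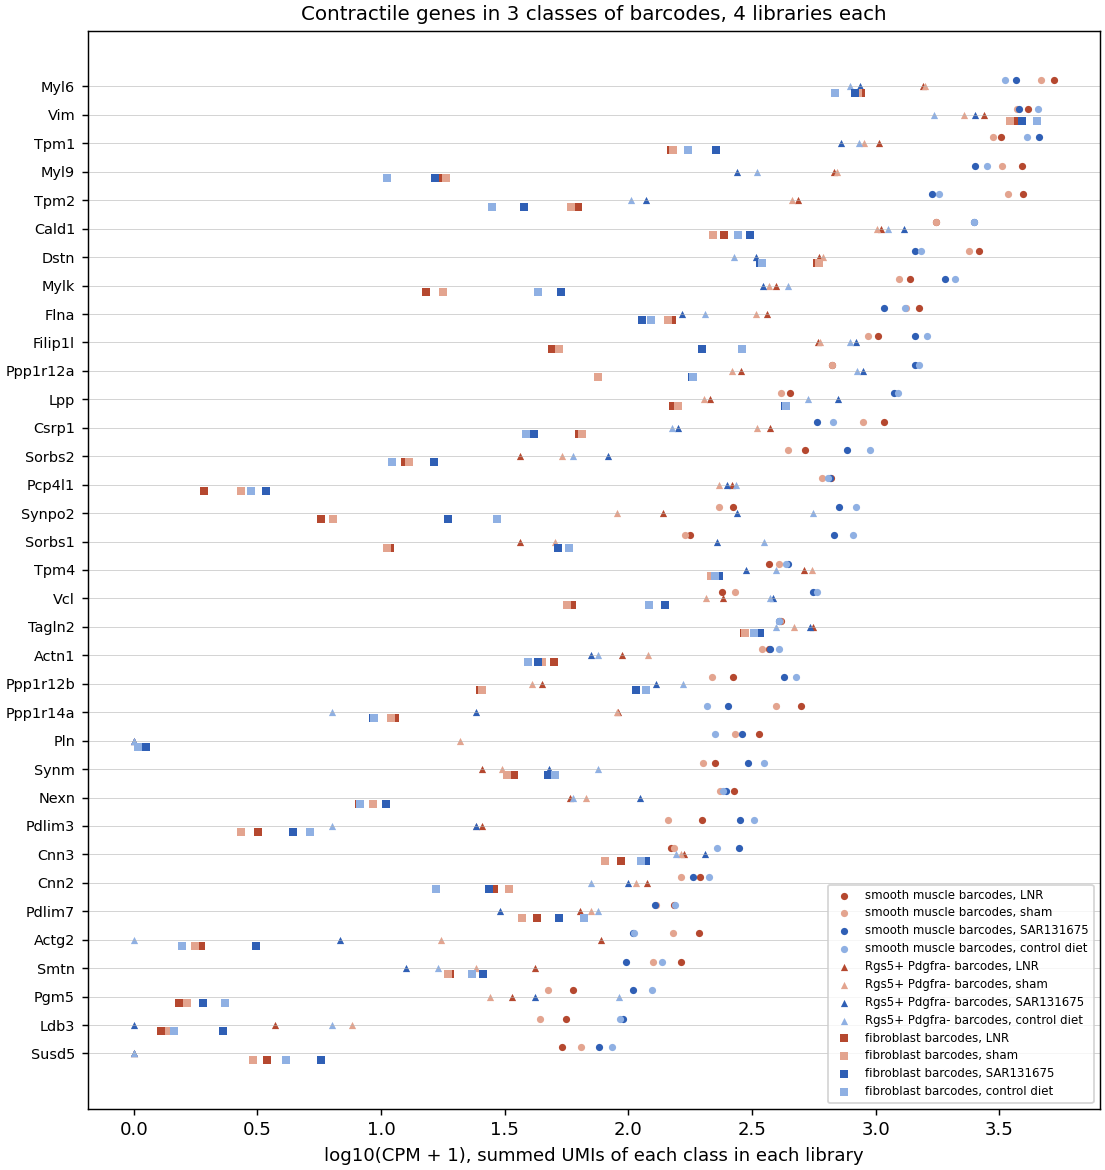
Contractile genes other than the rule genes in smooth muscle barcodes (circles), Rgs5+ Pdgfra- barcodes (triangles) and fibroblasts (squares), as log10(CPM + 1) of summed UMIs, 1 point per library. For most genes the circles lie to the right of the triangles and the triangles to the right of the squares, as for Myl9.

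Among transcription factors, Myocd, the gene of myocardin, set smooth muscle apart and its partner did so less. Myocd stood at 71.8, 61.2, 169 and 177 CPM, against 8.19, 23.2, 23.3 and 16 CPM in Rgs5+ Pdgfra- barcodes and 0.632, 0.254, 0.251 and 0.381 CPM in fibroblasts. It was higher than in Rgs5+ Pdgfra- barcodes by 2.76 ± 0.31 (SE, adjusted p = 3.0e-05). Srf stood at 12.1, 15.2, 20.3 and 22.6 CPM against 6.60, 6.42, 7.5 and 6.93 CPM in fibroblasts, a difference of 1.35 ± 0.17 (SE, adjusted p = 3.1e-04), and did not pass against Rgs5+ Pdgfra- barcodes (0.67 ± 0.50 SE, adjusted p = 0.51). The myocardin-related factor Mrtfb did not pass against fibroblasts (0.014 ± 0.10 SE, adjusted p = 0.93), and Mrtfa differed from them by 0.60 ± 0.12 (SE). Mef2c, a partner in muscle gene control, was higher by 2.34 ± 0.11 (SE) and 0.79 ± 0.13 (SE). Over the whole list, 20 of 32 genes were higher and 5 lower than in fibroblasts, and 10 of 30 were higher and 4 lower than in Rgs5+ Pdgfra- barcodes, or 11 of 29 and 2 without mixed clusters.

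Among the other factors of the list, members lay on both sides of the Rgs5+ Pdgfra- barcodes. Nr2f2, a factor of the venous vessel wall, stood at 369, 350.2, 901 and 834 CPM against 420.4, 354, 921 and 1119.7 CPM and did not pass that test (-0.044 ± 0.13 SE, adjusted p = 0.9), while it was above fibroblasts by 2.95 ± 0.13 (SE). Tbx18 was lower in smooth muscle than in Rgs5+ Pdgfra- barcodes, at -1.18 ± 0.22 (SE) and Ebf1, at -0.78 ± 0.11 (SE). Foxs1 and Tbx2 were above both classes, by 4.81 ± 0.14 (SE) and 4.66 ± 0.10 (SE) over fibroblasts and by 0.95 ± 0.24 (SE) and 1.02 ± 0.20 (SE) over Rgs5+ Pdgfra- barcodes. Hoxd13, a gene of distal limb mesenchyme, was nearly absent at 7.93, 4.70, 4.28 and 3.10 CPM against 72.3, 64.1, 75.4 and 86.5 CPM in fibroblasts, whereas Hoxa13 stood at 28.5, 21.4, 34.9 and 33.5 CPM against 33.4, 32.9, 54.3 and 55.7 CPM. Klf4, which in other vessels is linked with loss of the contractile state, was below fibroblasts, at -0.91 ± 0.082 (SE).

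Notch signalling keeps mural cells in place and mature, and Notch3 is its mural receptor. Notch3 stood at 595, 499.7, 819.6 and 914 CPM in smooth muscle, at 497, 443, 868 and 639.9 CPM in Rgs5+ Pdgfra- barcodes and at 4.71, 6.55, 5.05 and 5.67 CPM in fibroblasts. It was above fibroblasts by 6.99 ± 0.21 (SE, adjusted p = 2.4e-07) and did not pass against Rgs5+ Pdgfra- barcodes (0.34 ± 0.13 SE, adjusted p = 0.13), but did without mixed clusters (0.73 ± 0.12 SE, adjusted p = 4.2e-04). The ligand Jag1, at 160.5, 163, 302 and 293 CPM, was above fibroblasts by 2.75 ± 0.14 (SE) and above Rgs5+ Pdgfra- barcodes by 0.62 ± 0.16 (SE). The target Heyl was above fibroblasts by 4.42 ± 0.19 (SE) but not past the test against Rgs5+ Pdgfra- barcodes (0.30 ± 0.24 SE, adjusted p = 0.56), and the target Hey2 was above both by 4.77 ± 0.13 (SE) and 2.27 ± 0.35 (SE). Nrip2, at 165, 131, 96.2 and 88.6 CPM, and the feedback gene Nrarp, at 119, 113, 174 and 162 CPM, were above Rgs5+ Pdgfra- barcodes by 3.33 ± 0.31 (SE) and 1.46 ± 0.21 (SE). The nuclear partner Rbpj was lower than in fibroblasts, at -1.0 ± 0.086 (SE). In all, 11 of 15 Notch genes were higher and 2 lower than in fibroblasts, and 4 of 13 were higher and none lower than in Rgs5+ Pdgfra- barcodes.

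Calcium entry and release genes separated smooth muscle from the Rgs5+ Pdgfra- barcodes by channel type. Cacna1c did not pass against Rgs5+ Pdgfra- barcodes (-0.13 ± 0.14 SE, adjusted p = 0.7) although it was above fibroblasts by 2.17 ± 0.084 (SE). Its partner subunit Cacnb2 was above both, by 3.35 ± 0.12 (SE) and 1.57 ± 0.30 (SE). Cacna1h, a T-type channel, stood at 29.9, 22.0, 21.6 and 24.5 CPM against 2.73, 0, 0 and 0 CPM. The store channels Itpr1 and Ryr2 were higher than in Rgs5+ Pdgfra- barcodes, Itpr1 by 1.20 ± 0.20 (SE), with Ryr2 at 19.6, 16.2, 74.5 and 87.7 CPM against 0, 0, 0 and 10.7 CPM. Itpr2, another form of the receptor, was lower, at -1.49 ± 0.23 (SE). Trpc6, a receptor-operated channel, stood at 21.0, 16.7, 159.5 and 156 CPM against 21.8, 29.8, 548 and 437 CPM in Rgs5+ Pdgfra- barcodes (-1.19 ± 0.22 SE, adjusted p = 0.0025).

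Of the pumps and exchangers that remove calcium, some were higher in smooth muscle than in Rgs5+ Pdgfra- barcodes. The reticulum pump Atp2a2 stood at 546, 477, 1009 and 1056 CPM and was above Rgs5+ Pdgfra- barcodes by 1.46 ± 0.16 (SE), and the exchanger Slc8a1 was above them by 4.45 ± 0.41 (SE). The plasma membrane pump Atp2b4 was above them by 0.86 ± 0.13 (SE), whereas Atp2b1 did not pass (0.46 ± 0.17 SE, adjusted p = 0.12) but did without mixed clusters (0.60 ± 0.18 SE, adjusted p = 0.023). Casq2, the store buffer calsequestrin, stood at 31.7, 44.4, 66.2 and 61.7 CPM against 5.46, 19.8, 5.83 and 0 CPM. Over the calcium and potassium list 31 of 36 genes were higher and 3 lower than in fibroblasts, and 17 of 34 were higher and 5 lower than in Rgs5+ Pdgfra- barcodes.

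Potassium channels differed between the mural classes. The large-conductance channel Kcnma1 stood at 25.7, 18.8, 129 and 133 CPM and had no UMI in any Rgs5+ Pdgfra- sum, and its partner Kcnmb1 stood at 46.7, 44.4, 38.1 and 46.8 CPM against 8.19, 6.62, 5.83 and 0 CPM. Kcna5, a voltage-gated channel, stood at 18.7, 14.1, 22.5 and 18.3 CPM, again with no UMI in those sums. Kcnab1, a subunit of such channels, stood at 91.9, 68.5, 706 and 684 CPM against 2.73, 3.31, 23.3 and 0 CPM, a difference of 5.76 ± 0.36 (SE, adjusted p = 1.3e-07). Kcnj8 and Abcc9, which form the ATP-sensitive channel of pericytes, chose the Rgs5+ classes and are therefore only described, at 39.7, 31.4, 66.6 and 82.1 and at 62.5, 58.0, 224 and 277 CPM in smooth muscle. The chloride channel Ano1 was lower than in Rgs5+ Pdgfra- barcodes, at -0.63 ± 0.15 (SE), a call lost without mixed clusters (-0.33 ± 0.16 SE, adjusted p = 0.16), and above Rgs5+ Myh11- barcodes by 0.99 ± 0.22 (SE, adjusted p = 0.015), and above fibroblasts by 4.67 ± 0.36 (SE). Among gap junction genes Gja4 and Gjc1 were above fibroblasts by 9.17 ± 0.41 (SE) and 3.30 ± 0.092 (SE), and Gja1 was below them, at -1.72 ± 0.27 (SE).

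Receptors for constrictors and dilators came next. Npy1r, the neuropeptide Y receptor of vessels, stood at 364, 347, 386 and 456 CPM and was above fibroblasts by 5.22 ± 0.17 (SE) and above Rgs5+ Pdgfra- barcodes by 0.57 ± 0.16 (SE). P2rx1, the ATP-gated channel that sympathetic nerves act on, stood at 103, 66.4, 61.2 and 114 CPM with no UMI in Rgs5+ Pdgfra- barcodes and 0 to 0.114 CPM in fibroblasts. Endothelin receptor Ednra stood at 157, 157, 366 and 356 CPM and did not pass against Rgs5+ Pdgfra- barcodes (-0.021 ± 0.14 SE, adjusted p = 0.97), and Ednrb stood at 42.9, 59.6, 224 and 213 CPM and was lower than in them, at -1.64 ± 0.22 (SE). The angiotensin receptor Agtr1a was low at 8.86, 7.32, 17.3 and 21.7 CPM and below Rgs5+ Pdgfra- barcodes, at -2.47 ± 0.27 (SE). Among adrenergic receptors, Adra2a stood at 72.8, 64.3, 139 and 147 CPM and was below Rgs5+ Pdgfra- barcodes, at -0.99 ± 0.20 (SE), whereas Adra1a stood at 5.6, 6.27, 45.2 and 40.6 CPM against 5.46, 0, 5.83 and 0 CPM. Receptors thus lay on both sides, with Npy1r above the Rgs5+ Pdgfra- barcodes and Ednrb, Agtr1a and Adra2a below them.

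Nitric oxide relaxes vessels through cyclic GMP. Its receptor subunits Gucy1a1 and Gucy1b1 stood at 358, 361, 666 and 684 and at 161, 163, 359.6 and 346 CPM in smooth muscle against 3.04 to 5.43 and 1.95 to 4.72 CPM in fibroblasts, and at 314, 212, 571 and 539 and at 172, 162, 279.7 and 272 CPM in Rgs5+ Pdgfra- barcodes. Gucy1a1 was above fibroblasts by 6.92 ± 0.12 (SE, adjusted p = 3.5e-08) and above Rgs5+ Pdgfra- barcodes by 0.50 ± 0.14 (SE, adjusted p = 0.031), and Gucy1b1 did not pass the second test (0.28 ± 0.15 SE, adjusted p = 0.31). The phosphodiesterase Pde5a did not pass against Rgs5+ Pdgfra- barcodes (0.083 ± 0.15 SE, adjusted p = 0.82). Without mixed clusters Gucy1b1 (0.65 ± 0.14 SE, adjusted p = 0.0025) and Pde5a (0.43 ± 0.14 SE, adjusted p = 0.04) both passed. Pde3a was above Rgs5+ Pdgfra- barcodes by 1.39 ± 0.18 (SE). Rgs4, which damps receptor signals, was above fibroblasts by 7.82 ± 0.17 (SE), and Rgs16 was below Rgs5+ Pdgfra- barcodes, at -1.36 ± 0.26 (SE). Over the list, 30 of 48 genes were higher and 6 lower than in fibroblasts, and 9 of 35 were higher and 4 lower than in Rgs5+ Pdgfra- barcodes, or 14 of 32 and 6 without mixed clusters.

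Vessel wall matrix genes lay on both sides of fibroblasts, also within basement membrane and integrin genes. Of 35 genes, 12 were higher and 19 lower than in fibroblasts, and 12 were higher and 3 lower than in Rgs5+ Pdgfra- barcodes. Eln, elastin, stood at 408, 329, 388 and 412 CPM in smooth muscle, 131, 182, 151 and 42.7 CPM in Rgs5+ Pdgfra- barcodes and 379, 395, 762 and 779 CPM in fibroblasts. It was above Rgs5+ Pdgfra- barcodes by 1.71 ± 0.24 (SE, adjusted p = 2.3e-04) and below fibroblasts in 3 of 4 libraries, with a difference of -0.52 ± 0.18 (SE, adjusted p = 0.049), a call lost without mixed clusters (-0.23 ± 0.22 SE, adjusted p = 0.41). Fbn1, fibrillin, was below fibroblasts, at -2.99 ± 0.19 (SE), and Fbln5, an elastic fiber binder, at -3.61 ± 0.25 (SE). The basement membrane chains Lama5, Col18a1 and Col4a1 were above fibroblasts by 4.70 ± 0.11 (SE), 2.88 ± 0.11 (SE) and 1.36 ± 0.092 (SE), whereas the linker Nid1 was below them, at -1.13 ± 0.11 (SE), and Lama4 did not pass (-0.19 ± 0.13 SE, adjusted p = 0.26). Hspg2, perlecan, and Lamc1 were also below, at -0.36 ± 0.091 (SE, adjusted p = 0.014) and -0.28 ± 0.09 (SE, adjusted p = 0.034), and both calls were lost without mixed clusters (-0.12 ± 0.10 (SE, adjusted p = 0.34) and 0.0067 ± 0.11 (SE, adjusted p = 0.97)). Col4a1 did not pass against Rgs5+ Pdgfra- barcodes (-0.34 ± 0.12 SE, adjusted p = 0.1), whereas Lama5 was above them by 1.95 ± 0.23 (SE). The integrin Itga8, at 119, 86.2, 179 and 208 CPM, was above both, by 3.08 ± 0.11 (SE) and 5.23 ± 0.37 (SE), and Itga7 was above fibroblasts by 5.94 ± 0.19 (SE), whereas Itga5 was below them, at -0.61 ± 0.10 (SE). Sparcl1, an adhesion-modulating matrix protein, stood at 3244, 2849.9, 4771 and 5042 CPM against 310.0, 264, 344 and 364 CPM in fibroblasts, a difference of 3.6 ± 0.11 (SE). Mgp, an inhibitor of calcification, was lower than in Rgs5+ Pdgfra- barcodes, at -1.58 ± 0.21 (SE).

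Fibrillar matrix genes were mostly lower in smooth muscle than in fibroblasts. The fibroblasts were chosen by Pdgfra and by Dcn and Lum, matrix genes themselves. The counts against them thus describe the classes and are not independent of the rule. Of 31 genes of the list tested against fibroblasts, 22 were lower and 3 higher, and against Rgs5+ Pdgfra- barcodes 10 of 32 were lower and 3 higher. Without mixed clusters 23 were lower and 5 higher than in fibroblasts, and 17 of 32 lower and 2 higher than in Rgs5+ Pdgfra- barcodes. Col1a1 stood at 438, 406, 314 and 278 CPM against 3246, 3423, 3893 and 2949 CPM in fibroblasts, a difference of -3.25 ± 0.14 (SE). Col3a1 stood at 1155, 1163, 1279 and 1128 CPM, lower than in fibroblasts, at -1.93 ± 0.071 (SE) and than in Rgs5+ Pdgfra- barcodes, at -0.66 ± 0.13 (SE). Thbs1, thrombospondin, went the other way and was above fibroblasts by 3.02 ± 0.083 (SE). Dcn and Lum, which chose the fibroblasts, stood at 1274, 1243, 472 and 525 and 166, 108, 45.2 and 43.4 CPM in smooth muscle. In Rgs5+ Pdgfra- barcodes Dcn stood at 516, 469.7, 35.0 and 21.3 CPM, below the level in smooth muscle in each library. Without mixed clusters the difference turned to -1.13 ± 0.37 (SE). Dcn was among the genes by which those clusters were left out of the smooth muscle sums, so its level had to fall and that value is no test. Against Rgs5+ Myh11- barcodes, with all members, Dcn was lower in smooth muscle (-1.64 ± 0.23 SE, adjusted p = 0.0017). The part of RNA from fibroblasts in these values was not tested.

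The PDGF ligand genes Pdgfa and Pdgfb were above fibroblasts. Pdgfa stood at 331, 327, 420.2 and 370.0 CPM, above fibroblasts by 3.32 ± 0.13 (SE) and above Rgs5+ Pdgfra- barcodes by 0.58 ± 0.14 (SE). Pdgfb stood at 18.2, 26.1, 35.8 and 41.2 CPM and was above fibroblasts by 4.40 ± 0.50 (SE). The receptor Pdgfrb, one of the genes that chose the Rgs5+ classes, stood at 254, 271, 418 and 480.0 CPM in smooth muscle and was above fibroblasts by 1.42 ± 0.12 (SE). TGF beta receptors Tgfbr2 and Tgfbr3 were below fibroblasts, at -1.97 ± 0.11 (SE) and -1.62 ± 0.092 (SE), and Tgfb3 was above them by 1.00 ± 0.083 (SE). The BMP-responsive genes Id1, Id3 and Id4 were above fibroblasts by 1.40 ± 0.076 (SE), 1.18 ± 0.13 (SE) and 3.49 ± 0.087 (SE) and did not pass against Rgs5+ Pdgfra- barcodes, where Id4 differed by 0.088 ± 0.13 (SE, adjusted p = 0.78), but all 3 did without mixed clusters, at 0.56 ± 0.19 (SE, adjusted p = 0.047), 0.56 ± 0.13 (SE, adjusted p = 0.005) and 0.42 ± 0.13 (SE, adjusted p = 0.031). Bmp4 stood at 12.1, 17.8, 2.14 and 4.34 CPM against 149, 135, 97.2 and 138 CPM in fibroblasts, and was lower, at -4.10 ± 0.35 (SE). Over the list, 12 of 25 genes were higher and 9 lower than in fibroblasts, and 7 of 24 were higher and 1 lower than in Rgs5+ Pdgfra- barcodes, or 11 of 22 and 1 without mixed clusters.

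The target of SAR131675 was not detected above the level of a few UMIs. Flt4 stood at 0, 1.05, 0.214 and 0.93 CPM in smooth muscle and Kdr, the related receptor VEGFR2, at 0.933, 3.66, 0.214 and 0 CPM. Flt1, which binds VEGF ligands and can act as a decoy, stood at 42.0, 50.7, 192 and 214 CPM, above fibroblasts by 6.43 ± 0.27 (SE) and below Rgs5+ Pdgfra- barcodes, at -1.15 ± 0.19 (SE, adjusted p = 0.0011). Vegfc, the ligand of VEGFR3, stood at 6.53, 3.66, 4.28 and 6.20 CPM against 18.1, 18.8, 55.1 and 70.8 CPM in fibroblasts, and was lower, at -3.05 ± 0.31 (SE). Angpt2, a regulator of vessel stability, stood at 66.2, 53.8, 115 and 127 CPM and was above fibroblasts by 4.49 ± 0.13 (SE). Of the list, 4 of 14 genes were higher and 6 lower than in fibroblasts, where 21.6% of all genes were higher and 24.3% lower. Against Rgs5+ Pdgfra- barcodes 1 of 9 was higher and 3 lower, beside 6.3 and 3.14% of all genes. Against the planned Rgs5+ Myh11- class 4 of 12 were higher and 0 lower, beside 9.26 and 7.97% of all genes.

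Signals to osteoclasts and immune cells were mostly lower than in fibroblasts. Of 21 genes, 13 were lower and 6 higher than in fibroblasts, and against Rgs5+ Pdgfra- barcodes 5 of 17 were lower and 3 higher, or 5 of 13 and 1 without mixed clusters. Over all genes 24.3% were lower and 21.6% higher than in fibroblasts. Against Rgs5+ Pdgfra- barcodes 3.14% of all genes were lower and 6.3% higher, or 10.4 and 11.1% without mixed clusters. Tnfsf11, the osteoclast factor RANKL, stood at 0, 0.523, 0 and 0 CPM, and Csf1 at 25.7, 30.8, 39.6 and 49.0 CPM against 175, 154, 166 and 198 CPM in fibroblasts, a difference of -2.26 ± 0.13 (SE). Il34, the other ligand of the same receptor, was the reverse, at 69.5, 71.6, 248.6 and 259.7 CPM against 11.3, 11.6, 14.5 and 15.6 CPM, above fibroblasts by 3.43 ± 0.29 (SE, adjusted p = 4.3e-05) and below Rgs5+ Pdgfra- barcodes, at -0.79 ± 0.15 (SE, adjusted p = 0.0023), but above the planned Rgs5+ Myh11- class by 0.98 ± 0.24 (SE, adjusted p = 0.024). Cxcl12, a chemokine that retains leukocytes, was below fibroblasts, at -2.42 ± 0.083 (SE). The inflammatory genes Il6 and Ccl2 were above fibroblasts by 2.82 ± 0.41 (SE) and 1.34 ± 0.10 (SE) and below Rgs5+ Pdgfra- barcodes, at -0.90 ± 0.14 (SE) and -1.62 ± 0.17 (SE).

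Genes of the vascular subset were compared in the same way. All 15 tested were above fibroblasts, and 12 were above and 1 below Rgs5+ Pdgfra- barcodes. As for the contractile list, the classes were split on Myh11, so these counts describe the classes and are not independent of the rule. Mustn1 stood at 2701, 2139, 1785 and 1699 CPM and was above Rgs5+ Pdgfra- barcodes by 2.48 ± 0.15 (SE), and Mcam, an adhesion molecule of mural cells, by 1.04 ± 0.14 (SE). Map3k7cl and Rergl, at 41.5, 41.3, 95.1 and 88.0 and at 11.2, 7.84, 11.1 and 7.13 CPM, had no UMI in Rgs5+ Pdgfra- barcodes. Rergl lay near the level of a few UMIs in those sums, so its absence from them cannot be read. Art3, the exception, stood at 31.7, 38.2, 71.1 and 91.4 CPM against 101, 126, 204 and 149 CPM and was lower, at -1.27 ± 0.20 (SE). Among pericyte genes, 12 of 16 were above fibroblasts, whereas 1 of 11 was above and 4 below Rgs5+ Pdgfra- barcodes. Against the planned Rgs5+ Myh11- class the balance was the other way, with 3 of 10 above and 1 below. Both Rgs5+ classes were chosen by Rgs5 and other pericyte genes, so these counts are not independent of the rules. Steap4, Higd1b and Vtn were among those below Rgs5+ Pdgfra- barcodes, at -1.77 ± 0.24 (SE), -0.95 ± 0.23 (SE) and -0.96 ± 0.22 (SE), and the call for Higd1b was lost without mixed clusters (-0.52 ± 0.20 SE, adjusted p = 0.08).

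**Figure D3:**
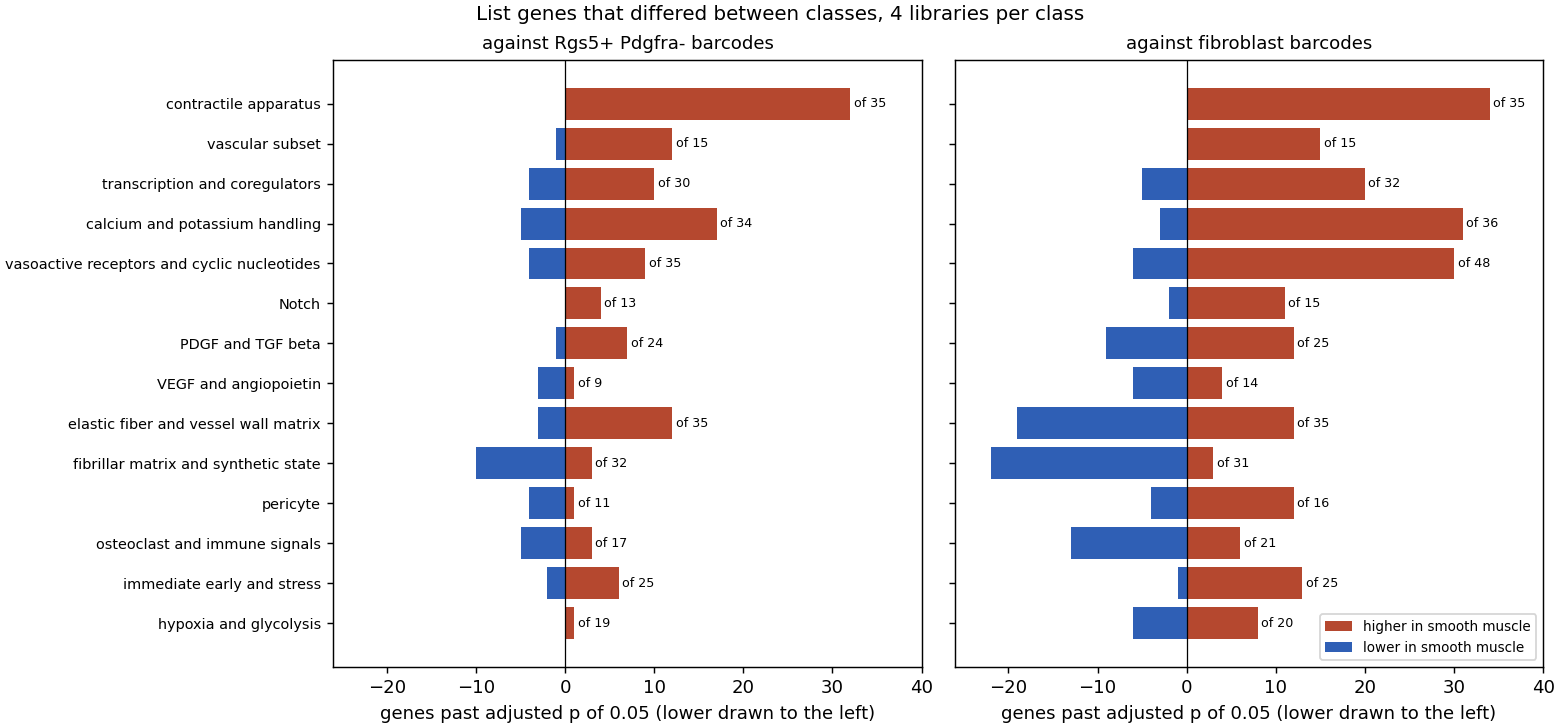
Number of genes of each list past an adjusted p of 0.05, higher in smooth muscle (right) or lower (left), against Rgs5+ Pdgfra- barcodes and against fibroblasts, 4 libraries per class, with the number tested. The classes were chosen by marker genes, so the counts are not independent of the rules. The contractile list has 32 of 35 and 34 of 35 genes on the higher side, and the fibrillar matrix list has 10 of 32 and 22 of 31 on the lower side, or 17 of 32 and 23 of 31 without mixed clusters, which are not drawn.

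The genes with the largest differences, by the rule of 10 in each direction with a mean of at least 100 CPM in the higher class, came partly from the same lists. Against Rgs5+ Myh11- barcodes they were Pln, Rbm24, Timp4, Fbxl22, Tmem132d, Dgkg, Nrip2, Pdlim3, Myom1 and Slc8a1, with differences of 4.85 to 6.45. All 10 were also above Rgs5+ Pdgfra- barcodes, by 3.14 to 5.73. Rbm24, an RNA-binding protein of muscle splicing, stood at 139, 145, 178 and 199 CPM against 10.9, 13.2, 0 and 0 CPM in Rgs5+ Pdgfra- barcodes (4.48 ± 0.39 SE, adjusted p = 3.1e-06). Timp4, a metalloproteinase inhibitor, stood at 159, 114, 76.2 and 109 CPM against 2.73, 6.62, 0 and 0 CPM (5.48 ± 0.42 SE, adjusted p = 1.0e-06). Myom1, a sarcomere crosslinker, was above Rgs5+ Pdgfra- barcodes by 3.30 ± 0.28 (SE).

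The largest differences downward against Rgs5+ Myh11- barcodes did not pass, or were not tested, against Rgs5+ Pdgfra- barcodes. They included Prg4, Col22a1, Zfp385b, Hhip, Clic5, Aldh1a3, Sema3a, AA467197 and Htra4, at -7.24 to -5.75. Against Rgs5+ Pdgfra- barcodes Prg4, the joint lubricant, had a difference of 0.48 ± 0.39 (SE, adjusted p = 0.56), Clic5 of -0.31 ± 0.37 (SE, adjusted p = 0.71) and Htra4 of -0.10 ± 0.24 (SE, adjusted p = 0.88), and none of them passed. Without mixed clusters Prg4 (-3.68 ± 0.72 SE, adjusted p = 0.0015) and Clic5 (-2.64 ± 0.68 SE, adjusted p = 0.01) passed and Htra4 did not (-1.20 ± 0.43 SE, adjusted p = 0.062). Col22a1 and Aldh1a3 did not pass either, at -0.75 ± 0.79 (SE, adjusted p = 0.67) and -1.42 ± 0.72 (SE, adjusted p = 0.28). Zfp385b, Hhip, Sema3a and AA467197 were too low to be tested there.

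Against fibroblasts the largest differences upward were in Or51e1, Pln, Kcnk3, Dgkg, Tinagl1, Gja4, Slc38a11, Pcp4l1, Myocd and Rbm24. Or51e1, an olfactory receptor, stood at 108, 111, 193 and 144 CPM against 0 to 0.0314 CPM. Kcnk3, an acid-sensitive background potassium channel, stood at 91.9, 80.0, 109 and 114 CPM against 0 to 0.0761 CPM, and was above Rgs5+ Pdgfra- barcodes by 1.30 ± 0.29 (SE, adjusted p = 0.0083). Tinagl1, a matrix protein of vessel basement membrane, stood at 589.7, 485, 718 and 752 CPM against 0.419 to 1.02 CPM. The largest downward were Mmp13, Bglap, Stmn2, Sfrp2, Mecom, Mfap4, Sema3a, Flrt2, Myoc and Hpse2, at -5.71 to -4.93. Mmp13, a collagenase of bone and cartilage, stood at 4.67, 1.57, 2.78 and 0 CPM against 410.4, 158, 28.6 and 49.2 CPM, and Bglap, the bone protein osteocalcin, at 7.46, 1.57, 0.642 and 0 CPM against 66.0, 231, 66.2 and 44.1 CPM.

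Smooth muscle barcodes were not alike among themselves. They were clustered within each pair of libraries, and the clusters, which are a description and carry no test, could be ordered by the same genes in both. Clusters rich in contractile genes numbered 3 in the diet pair (190, 172 and 59 barcodes) and 4 in the LNR pair (146, 116, 115 and 95). Pln stood at 447 to 579.7 CPM in the first and 431 to 954 CPM in the second, and Sorbs2 at 1399 to 2446 and 641 to 1112 CPM.

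At the other end lay clusters with little or no Pln and more of Zeb2, Nr2f2 and Col3a1. In the diet pair they were clusters 3 and 4 (130 and 112 barcodes), with 12.7 and 0 CPM of Pln, and in the LNR pair cluster 1 (179 barcodes), with 0 CPM. The genes that led cluster 3 of the diet pair by fold were Fxyd2, at 917 CPM against 15.7 CPM in the rest, Wfdc2, at 318 against 1.31 CPM, and Wfdc18, which are known from epithelia. Fxyd2 and Wfdc2 were also among the 10 leading genes of the Krt5+ Cnn1-rich cluster of the LNR pair, and cluster 3 was kept in the alternative without mixed clusters. The transcription factor Zeb2 stood at 3082 and 2625 CPM there against 523 to 721 CPM in the clusters rich in contractile genes, and in the LNR pair at 1221 CPM against 202 to 382 CPM. Nr2f2 stood at 1578 and 1376 CPM against 480.1 to 788 CPM, and at 921 CPM against 307 to 489 CPM. Col3a1 stood at 3464 and 2152 CPM against 97.3 to 657 CPM. The adrenergic receptor Adra2a and the decoy receptor Flt1 followed the same division, with Adra2a at 391 and 491 CPM against 1.58 to 18.8 CPM and Flt1 at 504 and 795 CPM against 2.69 to 37.9 CPM.

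Within that end, cluster 4 of the diet pair was led by inflammatory genes. Il6 stood at 1558 CPM there against 117 CPM in cluster 3, and the neutrophil chemokine Cxcl1 at 3061 against 389.5 CPM. Cluster 1 of the LNR pair held both sets, with 926 CPM of Il6, 1981 CPM of Cxcl1 and 1069 CPM of Ccl2, against 0 to 44.9 CPM of Ccl2 in its contractile-rich clusters.

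A further cluster in each pair held more Rgs5 than any other of its pair while it still met the smooth muscle rule. In the diet pair cluster 5 (88 barcodes) held 15189.5 CPM of Rgs5, 1162 CPM of Abcc9 and 1140.3 CPM of Steap4, with no Pln or P2rx1 and 2201 CPM of Acta2. In the LNR pair cluster 7 (47 barcodes) held 11552 CPM of Rgs5, 207 CPM of Abcc9 and 5909 CPM of Acta2. The genes that led them by fold were partly of other cell types. Cluster 5 of the diet pair had 4 hemoglobin genes among its first 6, with Hbb-bs at 3654 CPM against 360.3 CPM in the rest, beside Adarb2, Pde7b, Steap4 and Ednrb. Cluster 7 of the LNR pair was led by the myeloid genes S100a9, at 566 CPM against 6.40 CPM, S100a8 and Ccl4. The part of such RNA in these clusters was not tested. The level of Myh11 in them was 1372 and 2198 CPM, above its cut in the rule but below the contractile-rich clusters at 6153 to 8450.2 and 3771 to 4448 CPM. Rgs5 and Abcc9 are genes of pericytes. For these clusters, and for those with little or no Pln, the smooth muscle name comes from the rule genes, and a pericyte identity was not tested. All of them were kept in the alternative without mixed clusters.

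The contractile-rich barcodes divided again. The clusters highest in Acta2 and Tagln were cluster 8 of the diet pair and cluster 4 of the LNR pair, with 23138 and 21054 CPM of Acta2, 569 and 353 CPM of P2rx1 and 480.1 and 612 CPM of Actg2. Their Rgs5, at 1646 and 3007 CPM, was below that of cluster 1 of the diet pair, at 8702 CPM, and of cluster 5 of the LNR pair, at 4967 CPM. The lymphatic gene Ccl21a led that cluster 5, at 234 CPM against 4.73 CPM in the rest, followed by Tcf15, Tcim and Pln. The genes that led cluster 4 of the LNR pair included antigen presentation genes, with Cd74 at 752 CPM against 68.5 CPM in the rest, and those of cluster 8 of the diet pair included the Schwann cell gene Mbp, at 145 against 6.88 CPM. Cluster 2 of the diet pair and clusters 2 and 3 of the LNR pair had Ccrl2 among their 10 leading genes. Cdk11b led the first, the melanocyte gene Dct the second, at 152 CPM against 1.11 CPM, and Abt1 the third. The stress gene Ppp1r15a stood at 2097, 1449 and 1434 CPM in these 3 clusters, against 777 to 789.6 CPM in the other contractile-rich clusters of the diet pair and 454 to 568 CPM in those of the LNR pair. The immediate early gene Nr4a1 stood at 1089.7, 1657 and 1575 CPM, against 466 to 809 and 369.5 to 607 CPM. Such genes are also known to rise during tissue digestion, and their part in these clusters was not tested.

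The remaining clusters were set apart by their keratinocyte, fibroblast or leukocyte markers. Krt10, a keratin of differentiated epidermis, stood at 6599.61 CPM in cluster 7 of the diet pair (68 barcodes) and 11714 CPM in cluster 8 of the LNR pair (46 barcodes), Dcn at 8898 CPM in cluster 6 of the LNR pair (63 barcodes), and the macrophage gene C1qa at 2401 CPM in cluster 11 of the LNR pair (14 barcodes). These, the small clusters 9 and 10 of the diet pair, cluster 9 of the LNR pair and the Krt5+ Cnn1-rich clusters were left out in the alternative without mixed clusters. That setting still held the clusters led by hemoglobin, Schwann cell, antigen presentation, myeloid, lymphatic or epithelial genes described above.

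**Figure D4:**
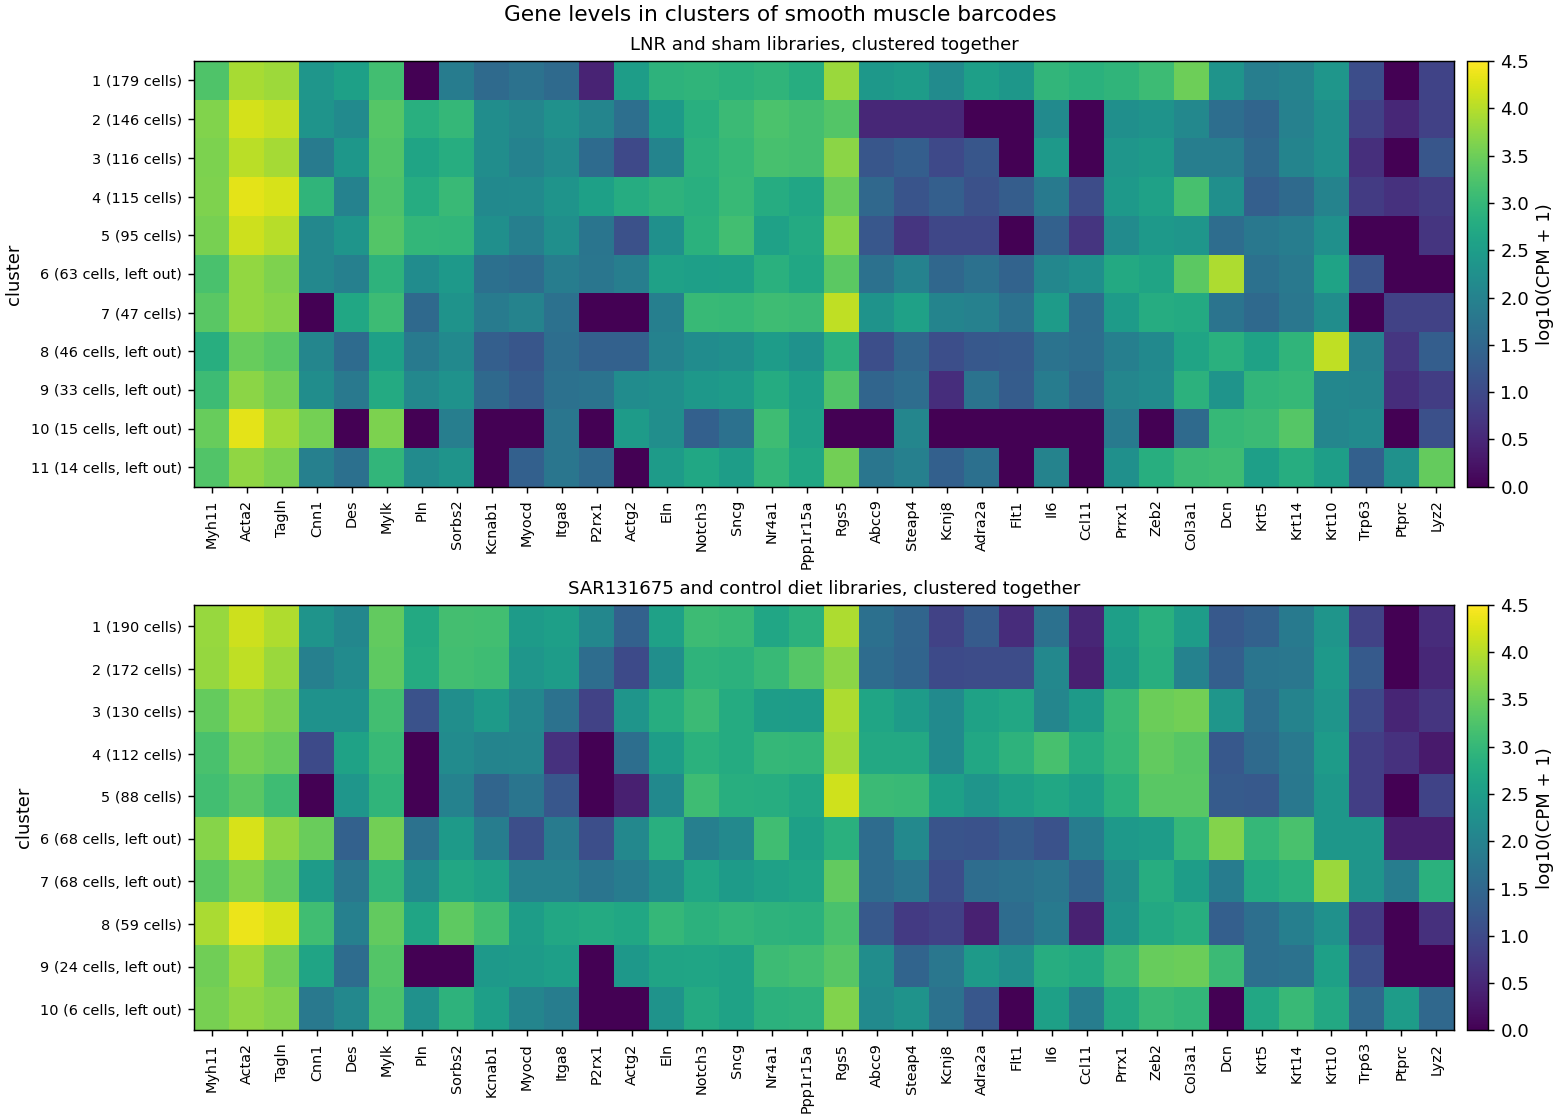
Level of selected genes, as log10(CPM + 1) of summed UMIs, in each cluster of smooth muscle barcodes, for the LNR pair and the diet pair clustered separately, with the number of barcodes. Pln is bright in the contractile-rich clusters and dark in clusters 3, 4 and 5 of the diet pair and cluster 1 of the LNR pair, where Abcc9, Zeb2 and Col3a1 are brighter.

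Both libraries of a pair held every cluster. In the diet pair cluster 8, highest in Acta2, was 4.77% of SAR131675 and 8.87% of control diet barcodes, cluster 2 was 21.1 and 15.3%, and cluster 4, highest in Il6, was 12.3 and 12.1%. In the LNR pair cluster 1 was 21.5% of LNR and 19.5% of sham barcodes and cluster 4 was 12.6 and 14%. Because cluster genes can themselves differ between libraries, these shares are given as a description.

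Within smooth muscle few genes differed by 2-fold or more between conditions. Of 8537 genes with at least 100 UMIs over SAR131675 and control diet, 60 were past 2-fold (0.703%), 26 higher (0.305%) and 34 lower (0.398%) in SAR131675. Of 5118 genes in LNR and sham, 49 were past 2-fold (0.957%), 31 higher (0.606%) and 18 lower (0.352%) in LNR. The balance in LNR depended on the setting, with 11 higher and 29 lower of 2777 genes without barcodes with Ptprc, Pdgfra, Krt5 or Krt14, and 24 higher and 26 lower with the mean of per-cell CPM. Without mixed clusters 28 of 7421 genes (0.377%) and 6 of 3319 (0.181%) were past 2-fold. Of the 60 genes in the diet pair, 40 then fell under 100 UMIs and were not compared, 12 were past 2-fold in the same direction and 8 were under 2-fold, and the other 16 of the 28 were past 2-fold in this setting alone. Of the 49 in the LNR pair, 42 fell under 100 UMIs, 4 were past 2-fold in the same direction and 3 were under it.

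No contractile gene was past 2-fold in either pair. Over all genes 0.703% were in SAR131675 and 0.957% in LNR, a share at which few of 35 genes would be. In SAR131675 10 of 35 were above control diet and 25 below, with a median log2 ratio of -0.13 against -0.028 over all genes, and 9 and 26 without mixed clusters. In LNR 31 of 35 were above sham and 4 below, with a median of 0.18 against 0.022, but 17 and 18 without mixed clusters, with a median of -0.00083. Leaving out 86 barcodes of LNR and 85 of sham thus moved the list's median to near 0. Smtn, smoothelin of mature contractile cells, had a log2 ratio of -0.48 (95% interval -0.67 to -0.29) in SAR131675 over control diet and 0.38 (95% interval 0.14 to 0.62) in LNR over sham. Pln was above the control in both pairs, at 0.37 (95% interval 0.24 to 0.50) and 0.32 (95% interval 0.16 to 0.49), and at 0.30 and 0.28 without mixed clusters. Flna, the actin crosslinker filamin A, was at -0.28 (95% interval -0.34 to -0.22) and 0.18 (95% interval 0.11 to 0.26), the second being 0.035 without mixed clusters.

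Vessel wall matrix genes mostly lay a little below control diet in SAR131675. Of 31 elastic fiber and vessel wall genes 27 were below control diet and 4 above, with a median log2 ratio of -0.19, and 26 and 3 without mixed clusters, where Npnt, nephronectin, was past 2-fold at -1.03 on 60 and 82 UMIs, against -0.42 (95% interval -0.85 to 0.0052) with all barcodes. The basement membrane genes Col4a1, Col4a2, Col18a1 and Hspg2 were at -0.30 (-0.38 to -0.22), -0.29 (-0.37 to -0.20), -0.38 (-0.51 to -0.26) and -0.38 (-0.54 to -0.22), each with an interval below 0. The fibronectin receptor subunit Itga5 stood at 29.4, 28.7, 48.2 and 91.4 CPM and was at -0.92 (95% interval -1.18 to -0.67), and at -0.82 without mixed clusters. Fbln5, past 2-fold at -1.29 (95% interval -1.90 to -0.70) on 105 UMIs over both libraries, was at 0.0046 without mixed clusters, on 18 and 12 UMIs. In LNR the list was mixed, with 18 of 29 above and 11 below sham and Col4a1 at -0.22 (95% interval -0.34 to -0.10).

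The osteoclast and immune signal list lay mostly below sham in LNR and on both sides of control diet in SAR131675, and the difference between pairs was not tested. Il6 stood at 191, 256, 353 and 203 CPM, with log2 ratios of 0.80 (95% interval 0.67 to 0.93) in SAR131675 over control diet and -0.42 (95% interval -0.62 to -0.23) in LNR over sham, or 0.65 and -0.52 without mixed clusters. The adhesion molecule Vcam1 was at 0.71 (95% interval 0.37 to 1.06) and -0.35 (95% interval -0.89 to 0.18), and Icam1 was below the control in both, at -0.30 (95% interval -0.47 to -0.13) and -0.56 (95% interval -0.90 to -0.22). The eosinophil chemokine Ccl11 was at 0.43 (95% interval 0.25 to 0.60) in SAR131675. In LNR 13 of 15 genes of this list were below sham and 2 above, with a median of -0.27, and Cd55, a complement regulator, was past 2-fold at -1.06 (95% interval -1.58 to -0.56). In SAR131675 9 of 14 were above and 5 below, with a median of 0.030, or 7 and 6 with a median of 0.025 without mixed clusters, where all 9 genes left in LNR were below sham. Leukocyte markers differed between the same libraries, at 493, 153, 151 and 554 CPM, and their part in these values was not tested.

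Receptors and channels held single genes of note. P2rx1 had a log2 ratio of -0.90 (95% interval -1.13 to -0.67) in SAR131675 over control diet and 0.64 (95% interval 0.31 to 0.96) in LNR over sham, and Avpr1a, the vasopressin receptor, -0.63 (95% interval -0.86 to -0.40) and 0.62 (95% interval 0.23 to 1.02). Both genes therefore lay below the control in one pair and above it in the other, and P2rx1 was at 0.35 in LNR without mixed clusters. P2rx1 was highest in cluster 8 of the diet pair, which held 4.77% of SAR131675 and 8.87% of control diet barcodes, and the part of that share was not tested. Adra1b was past 2-fold at -1.18 (95% interval -1.72 to -0.66) in SAR131675, with levels of 12.1, 9.41, 10.9 and 24.8 CPM. The adrenomedullin receptor partner Ramp2 was past 2-fold in LNR at -1.19 (95% interval -1.83 to -0.56), with levels of 15.4, 35.0, 2.78 and 2.48 CPM. Without mixed clusters only 1 and 10 UMIs of Ramp2 were left in LNR and sham. It is a gene far higher in fibroblasts at 229, 238, 289.9 and 281 CPM. Neither the vasoactive list (15 above and 15 below in SAR131675, 14 and 9 in LNR) nor the calcium and potassium list (12 and 24, 21 and 4) had another gene past 2-fold. Over all genes the share past 2-fold was 0.703% in SAR131675 and 0.957% in LNR. Without mixed clusters the calcium and potassium list in LNR was 9 above and 12 below.

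Notch and BMP target genes gave small ratios. Hes1 and Hey1 were at 0.28 (95% interval 0.19 to 0.37) and 0.65 (95% interval 0.18 to 1.12) in SAR131675 and Hes1 was at 0.027 (95% interval -0.079 to 0.13) in LNR, where Hey1 had fewer than 100 UMIs. Id1, Id3 and Id4 were at 0.34 (0.20 to 0.49), 0.29 (0.23 to 0.35) and 0.31 (0.19 to 0.43) in SAR131675, each with an interval above 0, whereas Notch2 was at -0.54 (95% interval -0.77 to -0.32). The receptor Notch3 was at -0.16 (95% interval -0.23 to -0.087) in SAR131675 and 0.25 (95% interval 0.13 to 0.37) in LNR. No gene of the Notch, PDGF and TGF beta, VEGF, transcription or pericyte lists was past 2-fold in either pair, where 0.703 and 0.957% of all genes were, a share at which few genes of lists this short would be. Without mixed clusters 1 pericyte list gene, Postn, was past 2-fold in SAR131675, at 1.15 on 612 and 185 UMIs, against 0.35 (95% interval 0.22 to 0.47) with all barcodes.

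**Figure D5:**
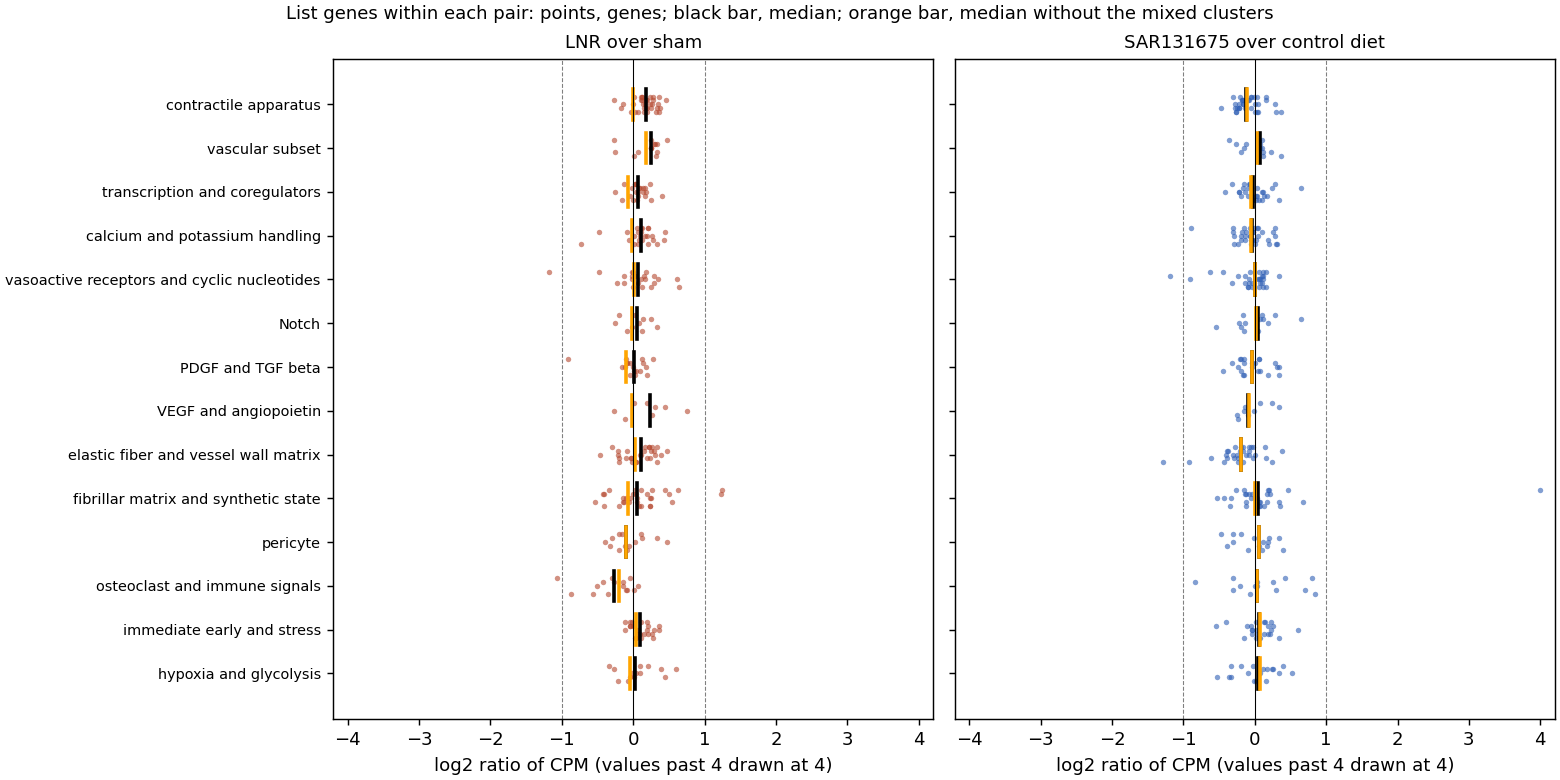
Log2 ratio of CPM for each gene of a list with at least 100 UMIs, LNR over sham (left) and SAR131675 over control diet (right), within smooth muscle barcodes. Black bars are list medians, orange bars the medians without mixed clusters, and dashed lines mark 2-fold; values past 4 are drawn at 4. The contractile median lies at 0.18 in LNR and moves to -0.00083 without mixed clusters, and at -0.13 in SAR131675.

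The 5 largest differences in each direction mostly lay in few barcodes. In SAR131675 over control diet the higher ones included Spp1, Chad, F13a1 and Prg4. Spp1, osteopontin, had 402 UMIs in 12 barcodes against 3 UMIs, a log2 ratio of 6.53 (95% interval 4.98 to 8.82). Without mixed clusters it had 45 against 2 UMIs, a ratio of 3.91. Chad and Prg4, both cartilage genes, had log2 ratios of 4.16 and 3.87. Without mixed clusters Prg4 was at 0.62, while Chad had 2 against 1 UMI and F13a1 6 against 4. The lower ones were Lyz1, C1qa, Ctss, H2-Ab1 and H2-Eb1, genes of macrophages and antigen presentation, at -5.77 to -2.35. Without mixed clusters H2-Eb1 turned to 2.23, on 35 against 5 UMIs. Ctss, H2-Ab1, Lyz1 and C1qa had 4 against 2, 6 against 3, 1 against 1 and 1 against 0 UMIs, from which no direction can be read.

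In LNR over sham the higher ones were Cfd, Ibsp, Car3, Ccl4 and Tchh. Cfd, an adipocyte gene, had 342 UMIs in 1 barcode of LNR and none in sham, Car3 had 182 in 1 barcode and none, and Ibsp, of bone matrix, 311 in 3 barcodes and none. Of the 315 UMIs of Tchh, a hair follicle gene, 304 came from 1 barcode. Ccl4, a chemokine of myeloid cells, had 108 UMIs in 4 barcodes of LNR, 55 of them in 1, against 1 UMI in sham. The lower ones were Prg4, Angptl7, Htra4, Wfdc12 and Phgdh, at -2.52 to -1.66, and Prg4 had 9171 UMIs in sham of which 2105 came from 1 barcode. Without mixed clusters Cfd, Car3 and Ibsp had no UMI in either library and Tchh had 2 against 4. Ccl4 had 56 against 1 UMI, and the kept cluster 7 of the LNR pair held it at 373 CPM. Of the lower ones Prg4 and Htra4 turned to 0.50 and 0.76, on 93 against 53 and 38 against 18 UMIs. Wfdc12, Phgdh and Angptl7 had 4 against 3, 3 against 6 and 4 against 0 UMIs, from which no direction can be read.

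Genes with the same direction in both pairs included markers of other cell types. Flg, Lor, Spp1, Pf4 and Comp were the largest on the higher side, with Flg and Lor, of cornified epidermis, at 2.81 and 1.57 in SAR131675 and 3.58 and 2.61 in LNR. Without mixed clusters Flg was at 0.37 in SAR131675, on 62 against 32 UMIs, and Lor at 0.17, on 121 against 72. In LNR they were at -0.16 and 0.36, on 10 against 9 and 16 against 10 UMIs, from which no direction can be read. In LNR Spp1 was at 1.23 (95% interval 0.82 to 1.66), with 150 of its 176 UMIs in 1 barcode, and had 18 against 1 UMI without mixed clusters. Pf4 then had 2 against 3 UMIs in SAR131675 and 17 against 10 in LNR, and Comp 9 against 7 and 10 against 5. On the lower side were Cxcl14, Igfbp2, Sfrp1, H4c4 and Eppk1, at -0.78 to -0.55 in SAR131675 and -0.76 to -0.56 in LNR. Without mixed clusters Igfbp2 was at -0.54 and -1.84, on 69 against 67 and 24 against 69 UMIs. H4c4, a histone gene, was at -0.56 in both, on 80 against 79 and 27 against 32 UMIs. Cxcl14, Sfrp1 and Eppk1 then had 25 against 17, 14 against 17 and 10 against 5 UMIs in SAR131675 and control diet, and 4 against 9, 3 against 4 and 1 against 2 in LNR and sham.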

How the data were processed

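Single-cell RNA-seq (10x Single Cell 3' v3 in the labels) was read from 4 deposited UMI count matrices, which the authors made with Cell Ranger (6.1.2 in the processing notes, and 6.1.2 or 8.0.1 per the file headers) on GRCm39. The counts were used as deposited. Barcode limits were those of the study's methods. The members, gene lists and named-gene rule were chosen with earlier results of these data known. UMIs were summed per library and class. Classes were compared with edgeR 4.0.16 (quasi-likelihood, TMM, filterByExpr, library as a block, Benjamini-Hochberg adjusted p), with DESeq2 1.42.0 as an alternative, and were tested on simulated data. Libraries within a pair were compared by log2 ratios of CPM with exact conditional 95% intervals, for genes with at least 100 UMIs over the pair, with no test. Shares carry Clopper-Pearson intervals. All intervals cover counting error only. Members were clustered per pair with scanpy 1.11.5 (Leiden, resolution 0.6). Genes named were the rule genes, list genes, the 10 largest differences each way per class and the 5 largest each way per pair, without rule, mitochondrial, ribosomal, Gm and Rik genes. A few of these are not reported here. Promoters came from RefSeq (GRCm38.p6).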

Additional observations from a re-analysis of the deposited data

How the results depend on the processing

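The share of smooth muscle barcodes in SAR131675 over control diet kept its sign under 10 alternatives, at 0.17 (-0.075 to 0.41) with 4 or more of the 5 genes, and reversed to -0.31 without barcodes with Ptprc, Pdgfra, Krt5 or Krt14, and that of LNR over sham kept its sign under all 11. Genes past 2-fold in SAR131675 numbered 145 with at least 50 UMIs, 18 with at least 300, 19 after thinning to 3000 UMIs, 18 without barcodes with those markers and 28 without mixed clusters. In LNR they numbered 108, 15 and 10 under the first 3 settings and 6 without mixed clusters. Genes above Rgs5+ Myh11- barcodes numbered 593 to 936 with 1 library left out, with 593 without SAR131675 and 668 without control diet, 649 without cells with Ptprc, Krt5 or Krt14 and 463 with no library term. Genes below numbered 454 to 840 with 1 library left out, with 454 without SAR131675 and 479 without control diet, 474 after thinning, 475 without cells with those markers, 373 with no library term, 337 against the class with no Pdgfra UMI and 1422 without mixed clusters. Without a library term 1550 genes were above and 1782 below fibroblasts. Apart from fewer barcodes, genes or libraries in some settings, the cause was not tested. The other alternatives left each total within 1.5 times, but in LNR the 31 genes higher and 18 lower became 11 and 29 without barcodes with those markers and 24 and 26 with per-cell means. No paired analysis was possible because each condition has 1 library. Depth limits genes under 100 UMIs over a pair, and the 33 to 104 barcodes of the Rgs5+ classes per library limit genes low in them.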

Other observations

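Immediate early and stress genes, which answer growth signals and also tissue handling, were partly above both other classes in smooth muscle. Of 25 genes, 13 were above fibroblasts and 1 was below, and 6 were above and 2 below the Rgs5+ Pdgfra- barcodes. Without mixed clusters 18 were above and 1 below fibroblasts, and 12 were above and 3 below Rgs5+ Pdgfra- barcodes. Atf3, a stress-induced factor, stood at 849, 879, 1029.9 and 879.7 CPM and was above fibroblasts by 1.56 ± 0.17 (SE, adjusted p = 1.9e-04) and above Rgs5+ Pdgfra- barcodes by 0.66 ± 0.16 (SE). Fos stood at 2379.6, 1981, 2793 and 2408 CPM against 2429, 2261, 1002 and 1107 CPM in fibroblasts and did not pass that test (0.59 ± 0.27 SE, adjusted p = 0.11), but did without mixed clusters (0.75 ± 0.22 SE, adjusted p = 0.017), and it was above Rgs5+ Pdgfra- barcodes by 0.53 ± 0.11 (SE). Hspb1, a small heat shock protein of muscle, was above fibroblasts by 1.76 ± 0.10 (SE). In the pairs 17 of 25 genes lay above control diet and 8 below in SAR131675, and 19 above and 6 below sham in LNR, with median log2 ratios of 0.057 and 0.098.

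Of 20 hypoxia and glycolysis genes, 8 were above and 6 below fibroblasts, where 21.6% of all genes were above and 24.3% below. Epas1, the hypoxia-inducible factor of vessels, stood at 476, 473, 585 and 594 CPM against 17.0, 14.6, 16.5 and 19.8 CPM in fibroblasts and was above them by 4.97 ± 0.10 (SE, adjusted p = 5.5e-08), and above Rgs5+ Pdgfra- barcodes by 0.81 ± 0.15 (SE). Hif1a was above fibroblasts by 1.09 ± 0.14 (SE) and Vegfa below them, with a difference of -0.87 ± 0.12 (SE). Cell cycle genes were few: 6 of 20 had 100 UMIs in the diet pair and 4 in the LNR pair, and 1 of 20 tested was above fibroblasts, or 0 above and 10 below without mixed clusters.

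Genes listed for smooth muscle of other organs were divided, with 6 of 14 above and 6 below fibroblasts. Pcp4, a calmodulin regulator, stood at 40.1, 35.5, 32.3 and 35.3 CPM against 0.919, 1.65, 0.251 and 0.114 CPM in fibroblasts. In the LNR pair it was at 1504 CPM in the cluster of 15 barcodes and 6.30 CPM in the rest, and without mixed clusters its difference from fibroblasts was 2.79 ± 0.85 (SE, adjusted p = 0.019). Chrm3, the muscarinic receptor, stood at 1.40, 0.523, 91.0 and 138 CPM, but in the diet pair it was at 1092 CPM in the cluster of 68 barcodes rich in Krt5 and Cnn1 and at 11.8 CPM in the rest, and without mixed clusters it was below fibroblasts (-2.68 ± 0.24 SE, adjusted p = 5.9e-06).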
